A study of Mus musculus with 3 samples.

Results

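Motile cilia genes were followed as a set of 35 genes through single-cell RNA profiles of newborn mouse cortex. All 35 names were found among the 27998 gene identifiers of the count tables. The set was chosen by name and with measured values of these same libraries already known, among them the summed counts across ependymal, astroglial and other cells. Its overall pattern is therefore described here without a test. The libraries were 10x Genomics droplet libraries in which each captured molecule carries a unique molecular identifier (UMI), and there was 1 library for each of 3 genotypes.

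The control library, whose genotype label reads WT, came from mice that the protocol lists as carrying floxed Map2k1 and Map2k2. These genes encode MEK1 and MEK2, the kinases that activate ERK. In the Emx1-Cre; MAP2k1/2-dcko library these floxed genes were combined with a Cre under the control of Emx1, which is active in dorsal cortical progenitors. In the hGFAP-Cre; MAP2k1/2-dcko library, Cre was driven by a human GFAP promoter, which is active in radial glia from later in gestation. In every group the dye FlashTag was injected into the lateral ventricle at E18.0, dorsal cortex was taken at P2, and tdTomato-positive cells were sorted. The labels name neither the allele that carries tdTomato nor the number or sex of the pups in a library, and they do not say whether the control carried a Cre.

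Motile cilia are the beating cilia that multiciliated ependymal cells carry on the ventricle wall, where they move cerebrospinal fluid. Each is built on an axoneme of microtubule doublets around a central pair, with dynein arms that bend it, radial spokes and nexin links that coordinate the bending, and tektins inside the doublets. Mcidas and Ccno act early, when a progenitor leaves the cell cycle and multiplies its centrioles, Myb takes part in the same step, and Foxj1 with the RFX factors Rfx2 and Rfx3 turns on axoneme genes. Ependymal cells come from radial glia, the same progenitors that give rise to astrocytes.

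The 3 tables held 11886, 13214 and 13139 barcodes in the control, Emx1-Cre and hGFAP-Cre libraries, of which 9519, 12191 and 11991 cells were kept. The median depth of a kept cell was 6427, 4989 and 5308 UMIs. The lowest UMI total of a barcode was 500 in the control but 2644 and 3065 in the mutants, so the called barcodes start at unequal depths. Between 90 and 101 barcodes of a library also occurred in another. Map2k1 was at 16.6, 13.9 and 16.3 UMIs per 1000000 UMIs of the summed cells (CPM) and Map2k2 at 196, 217 and 214 CPM. Tags at the transcript end do not check a deletion elsewhere in the gene. Xist was at 1462 CPM in the control and under 1 CPM in both mutants, and Ddx3y at 0, 37.0 and 45.5 CPM. Sex, library and genotype therefore cannot be told apart between the control and the mutants. With 1 library a genotype there is no replicate check, no p-value is given, and every interval below is a 95% interval that covers counting error alone.

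RefSeq promoter windows (GRCm38.p6) were at hand for 30 of the 35 genes. They were searched on both strands, in the 250 bases before the start, for GTTGCC, the core bound by RFX factors, and for GTAAACA, a forkhead core. GTTGCC occurred in 12 of the 30 genes, against 11.8% of 27025 genes of all kinds with a window. GTAAACA occurred in 1 of the 30, Ak7, against 3.54% of all genes. Both are descriptions of letters and say nothing of binding. The windows shown are those at hand for the members with the most UMIs, and that of Tmem212, because these genes carry the patterns described below. They are printed 5′ to 3′ along the gene, without bases that an annotated exon covers, with either strand of GTTGCC in capitals.
Dynlrb2 chr8:116504765-116504973 (plus strand): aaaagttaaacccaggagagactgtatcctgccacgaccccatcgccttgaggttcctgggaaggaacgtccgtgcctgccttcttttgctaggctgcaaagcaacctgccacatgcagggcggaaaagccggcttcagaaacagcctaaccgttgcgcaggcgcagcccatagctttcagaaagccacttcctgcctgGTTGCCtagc
Rsph9 chr17:46144217-46144450 (minus strand): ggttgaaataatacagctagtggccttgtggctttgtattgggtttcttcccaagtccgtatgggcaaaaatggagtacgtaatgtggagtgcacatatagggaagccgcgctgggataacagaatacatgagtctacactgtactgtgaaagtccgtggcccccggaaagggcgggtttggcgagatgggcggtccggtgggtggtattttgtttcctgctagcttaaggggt
Fam183b chr11:58801961-58802210 (minus strand): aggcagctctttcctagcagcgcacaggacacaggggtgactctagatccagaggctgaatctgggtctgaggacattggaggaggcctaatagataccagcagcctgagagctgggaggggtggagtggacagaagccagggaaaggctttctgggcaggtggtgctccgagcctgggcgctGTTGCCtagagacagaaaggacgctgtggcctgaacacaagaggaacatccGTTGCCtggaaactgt
Lrrc23 chr6:124779728-124779977 (minus strand): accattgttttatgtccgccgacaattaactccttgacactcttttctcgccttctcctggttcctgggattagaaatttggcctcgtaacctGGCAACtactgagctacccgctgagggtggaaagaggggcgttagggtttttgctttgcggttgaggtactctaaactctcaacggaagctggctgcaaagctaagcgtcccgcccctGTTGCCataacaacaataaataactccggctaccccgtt
Ccdc153 chr9:44240427-44240675 (plus strand): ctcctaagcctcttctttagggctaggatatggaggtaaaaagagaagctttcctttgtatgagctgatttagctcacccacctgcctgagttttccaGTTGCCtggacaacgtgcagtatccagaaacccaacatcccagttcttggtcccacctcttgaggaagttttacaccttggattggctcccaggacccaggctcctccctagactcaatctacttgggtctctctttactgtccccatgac
Tmem212 chr3:27896369-27896618 (minus strand): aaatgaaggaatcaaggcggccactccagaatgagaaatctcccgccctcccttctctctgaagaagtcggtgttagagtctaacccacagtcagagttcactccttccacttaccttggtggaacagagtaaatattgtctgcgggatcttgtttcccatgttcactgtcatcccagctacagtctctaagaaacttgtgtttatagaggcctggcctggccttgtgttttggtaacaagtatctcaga
Dynlrb2 and Ccdc153 held 1 copy each and Fam183b and Lrrc23 held 2, while Rsph9 and Tmem212 held none in their windows. Fam183b and Tmem212, which both differed by over 2-fold between the mutants' ependymal-like cells, were thus unlike in this respect.

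Over all kept cells, motile cilia transcripts were far more abundant in both mutants. The 35 genes summed to 203 CPM (interval 199 to 206) in the control, 2830.3 CPM (2818 to 2842) in the Emx1-Cre library and 1155 CPM (1147 to 1162) in the hGFAP-Cre library. The sums were 14.0-fold and 5.70-fold that of the control. Of the 35 genes, all of which passed a filter of 2 CPM in either library, 34 were at least 2-fold higher in the Emx1-Cre library on the scale of CPM + 1, beside 9.00% of 13190 genes of all kinds. Their median log2 ratio was 3.32, against -0.20 for all genes. In the hGFAP-Cre library 34 passed and 33 were at least 2-fold higher, beside 6.20% of 12981 genes, with a median of 2.40 against -0.10. Many members passed the filter through the mutant alone. With the filter set on the control's level, fewer members passed, and all of them but Rfx3, 19 genes, were at least 2-fold higher in each mutant. The share of all genes under that filter is not given here, so the 19 has no comparison. The set was chosen with these contrasts known, so the counts describe it and support nothing further.

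Among the regulators, Foxj1 was at 12.6 CPM in the control, 113 CPM in the Emx1-Cre library and 74.7 CPM in the hGFAP-Cre library. Mcidas was at 0.918, 10.5 and 4.89 CPM, Ccno at 2.48, 18.2 and 10.1 CPM, and Myb at 6.30, 54.2 and 31.5 CPM in the same order. Rfx2 followed with 2.59, 11.1 and 9.52 CPM. Rfx3 was the exception, at 38.7, 41.5 and 37.0 CPM, and it was the member within 2-fold of the control in both comparisons.

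Several structural genes were further from the control. Dynlrb2, a light chain of dynein motors, was at 11.8, 481 and 166 CPM, a 40.6-fold and a 14.0-fold difference from the control. Rsph1, a radial spoke head protein, was at 11.3, 465 and 162 CPM. Ccdc153, a dynein regulatory complex protein, was at 0.647 CPM in the control (50 UMIs) and at 122 and 44.3 CPM in the mutants. The other members with many UMIs were closer to the control in the Emx1-Cre library. Lrrc23, a radial spoke protein, was at 4.53, 135 and 48.5 CPM, and Nme5, a nucleoside diphosphate kinase family protein of the radial spoke, was at 9.10, 132 and 93.9 CPM. Rsph9, another spoke head protein, was at 40.1, 141 and 91.5 CPM. Fam183b, a ciliary protein, differed most between the mutants, with 6.94, 180 and 19.2 CPM. The 20 members not named by rule ranged from a log2 ratio of 2.31 (Armc4, a docking protein of outer dynein arms) to 6.29 (Tmem212) in the Emx1-Cre library. In the hGFAP-Cre library they ranged from 0.93 to 4.05, with the same genes at the ends.

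These totals moved with the number of ependymal-like cells, a class named from markers that include none of the 35 genes, after clustering with the 35 genes also kept out. It held 30 of 9519 control cells (0.315%, exact interval 0.213% to 0.450%), 1205 Emx1-Cre cells (9.88%, 9.36% to 10.4%) and 378 hGFAP-Cre cells (3.15%, 2.85% to 3.48%). With at least 2000 genes required of a cell the shares were 0.388%, 18.4% and 5.06%, and with cells called 1 by 1 from their marker scores they were 0.410%, 10.8% and 5.07%. Each of the 35 genes had its highest level in this class, among 11 named classes, in each of the 3 libraries. Axoneme genes such as Pifo, Meig1 and Mlf1 are among the markers that named the class, so this gives no separate support. Of all UMIs of the members, the class held 39.1% for the control, 95.0% for Emx1-Cre and 71.5% for hGFAP-Cre. Which cells the sort took from each genotype is not given in the sources used here, and its part in these shares was not tested. Markers of choroid plexus epithelium, the neighbouring epithelium that also carries motile cilia, summed to 14.9, 26.9 and 16.9 CPM over all cells for 10 genes, with Otx2 at 0 in the control. In ependymal-like cells they summed to 71.5, 113 and 101 CPM, beside 9426, 12867 and 9890 CPM for the 16 ependymal markers, and Ttr, Clic6, Kl, Otx2, Aqp1 and Prlr were at 0 in the control's 30 cells.

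**Figure D1:**
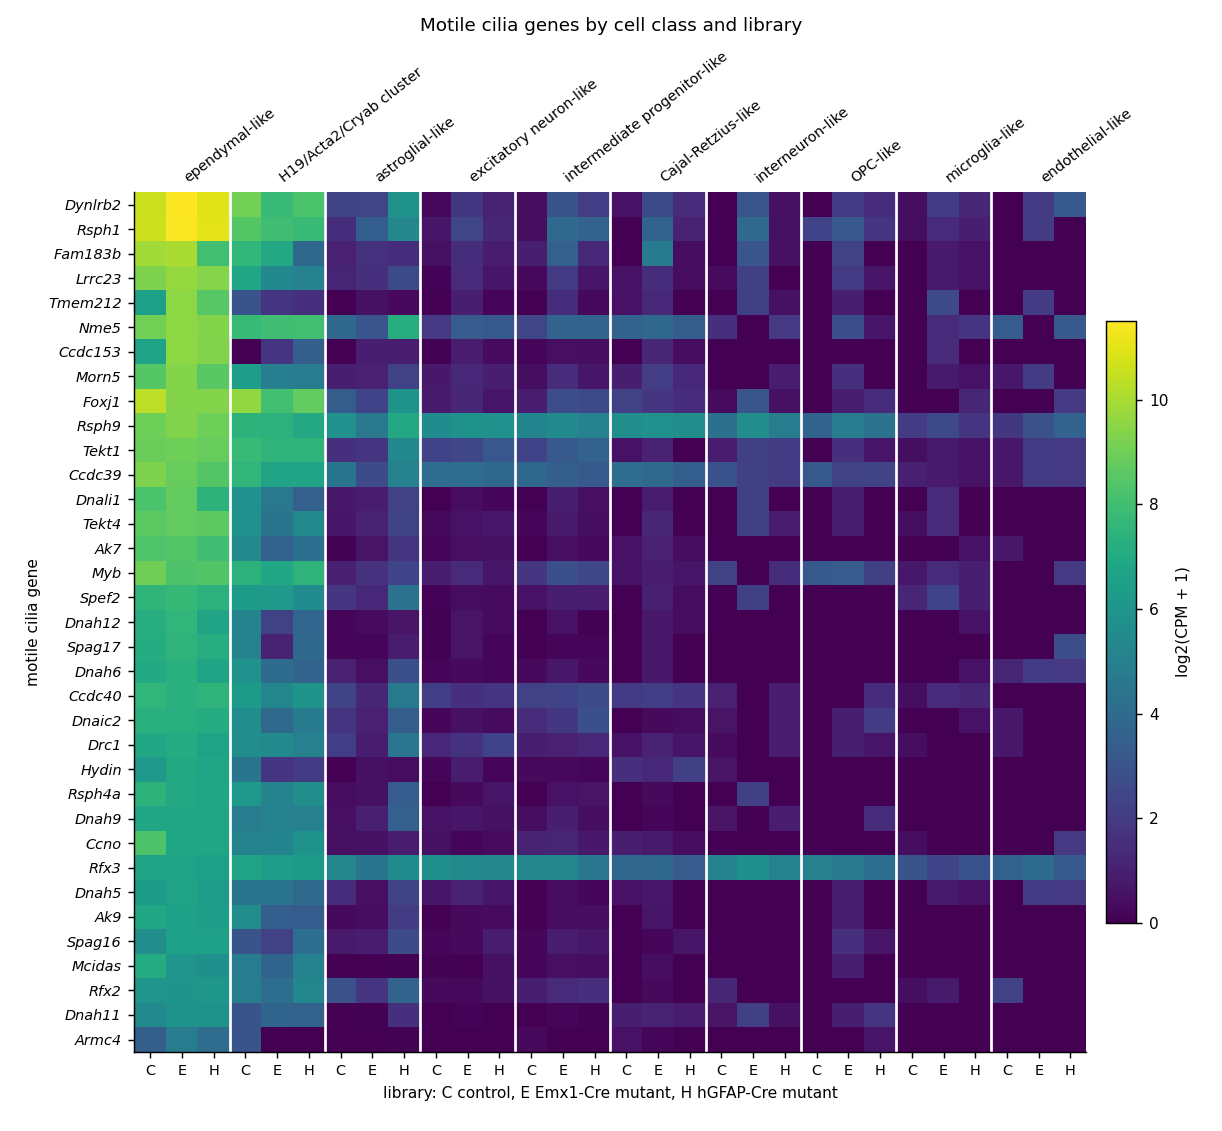
Level of each of the 35 motile cilia genes, as log2(CPM + 1) in colour, in the summed cells of 10 groups of cells (columns, each with the control, Emx1-Cre and hGFAP-Cre library). Within each library the ependymal-like column is the brightest for every gene but Rfx3 in the control. There the cluster led by H19, Acta2 and Cryab is level with it. The hGFAP-Cre column of astroglial-like cells is brighter than the 2 beside it in that class, and Rsph9, Rfx3 and Ccdc39 form bands across neuronal classes.

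Rsph9, Rfx3 and Ccdc39, a ruler protein that spaces dynein arms along the doublet, were also read in neurons. Rsph9 was at 45.9, 57.2 and 55.0 CPM in excitatory neuron-like cells of the control, Emx1-Cre and hGFAP-Cre libraries. Rfx3 was at 52.7, 41.0 and 39.3 CPM there, and Ccdc39 at 16.1, 16.1 and 13.2 CPM. In microglia-like cells, which arise outside the neural lineage and serve as a measure of background, Rsph9 was at 3.09 CPM and Rfx3 at 6.86 CPM in the control. The summed members were at 15.8, 37.0 and 22.7 CPM in microglia-like cells. They were at 133, 155 and 142 CPM in excitatory neuron-like cells.

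Within ependymal-like cells, the summed level differed far less than the number of cells did. It was 12499 CPM (12188 to 12816) in the control, 16398 CPM (16326 to 16471) in the Emx1-Cre library and 12107 CPM (12013 to 12201) in the hGFAP-Cre library. The log2 ratio to the control was thus 0.39 for Emx1-Cre cells and -0.046 for hGFAP-Cre cells. The control values rest on 30 cells. After each cell was thinned to 2500 UMIs, at least 8 of the 35 genes were detected in 96.7%, 99.1% and 96.3% of ependymal-like cells.

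Of the 6 regulators, Foxj1, Ccno, Mcidas and Myb were higher in the control's few ependymal-like cells than in those of either mutant. Foxj1 was at 1305 CPM (1205 to 1410) in the control, 656 CPM in the Emx1-Cre library and 650.2 CPM in the hGFAP-Cre library. Ccno was at 310.3, 106 and 109 CPM, Mcidas at 133, 62.6 and 53.1 CPM, and Myb at 521, 310.2 and 335 CPM. The RFX factors were nearly level, with Rfx2 at 63.3, 61.5 and 68.1 CPM and Rfx3 at 104, 98.5 and 88.2 CPM, and their intervals overlapped that of the control. Tmem212 and Ccdc153 ran the other way. Tmem212 was at 87.8 CPM (63.5 to 118) in the control and at 744 and 368 CPM in the mutants, and Ccdc153 was at 98.0, 738 and 638 CPM. At finer clustering, described next, early cells made up 90.3% of the control's class, 44.4% of Emx1-Cre and 47.5% of hGFAP-Cre cells. The pooled levels thus set unlike mixes of stages side by side, and the part of that mix was not tested.

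Finer clustering, again without the 35 genes, split ependymal-like cells into an early and a late cluster, named by the level of Ccdc67 (Deup1), which builds the deuterosome on which new centrioles form and is not a member. Ccdc67 was at 940 CPM (control), 685 CPM (Emx1-Cre) and 705 CPM (hGFAP-Cre) among early cells, and at 113, 278 and 288 CPM among late cells. At this resolution the class had 31, 1205 and 387 cells. The early cluster held 28 of 31 control cells (90.3%, exact interval 74.2% to 98.0%), 535 of 1205 Emx1-Cre cells (44.4%, 41.6% to 47.3%) and 184 of 387 hGFAP-Cre cells (47.5%, 42.5% to 52.7%). Clusters were formed from genes measured in the same cells, so the differences between them are a description.

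The regulators of centriole multiplication were early. Mcidas was at 129 CPM in early and 16.9 CPM in late cells of the Emx1-Cre library, and at 109 and 15.2 CPM in those of the hGFAP-Cre library. Ccno was at 210 and 35.6 CPM in the first and at 203 and 43.6 CPM in the second. Foxj1, which drives axoneme genes, was at 904 and 486 CPM, and at 908 and 463 CPM. Early cells were thus higher for each of these in both mutants. Rfx3 was nearly level, at 89.4 and 105 CPM in early and late Emx1-Cre cells.

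Axoneme genes were mostly level or late. Tmem212 was at 102 CPM in early and 1184 CPM in late Emx1-Cre cells, and at 49.8 and 588 CPM in hGFAP-Cre cells, an 11.6-fold and an 11.8-fold step. Ccdc153 was at 268 and 1059 CPM, and at 205 and 935 CPM. Tekt1, a tektin of the doublet lumen, was at 505 and 497 CPM, and at 434 and 467 CPM. So Tekt1 was about as high in early cells as in late ones, while Tmem212 and Ccdc153 belonged to late cells. In the Emx1-Cre library 9 of the 35 genes were at least 2-fold higher in late cells, beside 7.30% of 8848 genes at 10 CPM or more in either stage. In early cells 3 were at least 2-fold higher, beside 5.41%, and 23 lay between. In the hGFAP-Cre library 12 were higher in late cells, beside 7.67% of 9265 genes, 2 were higher in early cells, beside 4.59%, and 21 lay between. Among the 9, chosen after their values were seen, were Hydin and Spag16 of the central pair and the dynein heavy chains Dnah6, Dnah9 and Dnah11. The control had 3 late cells and gives no late level worth reading.

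**Figure D2:**
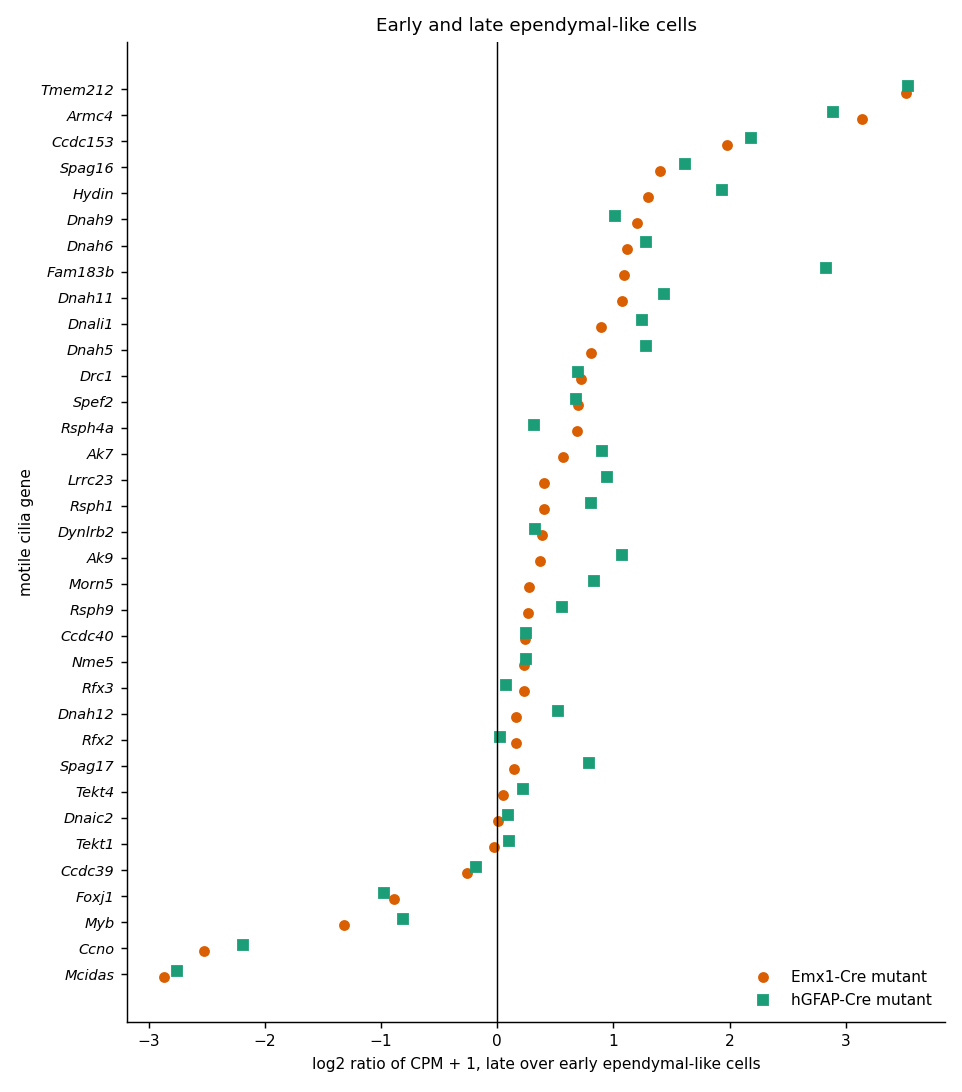
Log2 ratio of CPM + 1 in late over early ependymal-like cells (horizontal axis) for each motile cilia gene in the Emx1-Cre (circles) and hGFAP-Cre (squares) libraries. Mcidas and Ccno lie to the left in both libraries, Tekt1 lies near 0 and Tmem212 lies farthest to the right.

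Set directly against each other in ependymal-like cells, the mutants lay within 2-fold of each other for 32 of the 35 genes. All 35 passed a filter of 10 CPM. None was at least 2-fold higher in the hGFAP-Cre library, beside 1.20% of 8976 genes, and 3 were at least 2-fold lower, beside 1.40%. The 3 were Fam183b, Dnali1 and Tmem212, of which the last 2 are named after their values were seen. Fam183b was at 958 CPM (873 to 1048) in the control, 1054 CPM (1036 to 1073) in the Emx1-Cre library and 260.0 CPM (246 to 274) in the hGFAP-Cre library. The hGFAP-Cre library thus stood apart from both others for this gene, by 4.05-fold against the Emx1-Cre library. Dnali1, a light intermediate chain of inner dynein arms, was at 298, 426 and 173 CPM, and Tmem212 was at 87.8, 744 and 368 CPM.

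The Fam183b difference was present at both stages. In early cells it was at 696, 631 and 55.8 CPM in the control, Emx1-Cre and hGFAP-Cre libraries, an 11.3-fold difference between the mutants. In late cells it was at 1344 CPM in the Emx1-Cre and 402 CPM in the hGFAP-Cre library, a 3.34-fold difference. For Foxj1 the ratio of the Emx1-Cre to the hGFAP-Cre level was 0.995 in early and 1.05 in late cells.

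**Figure D3:**
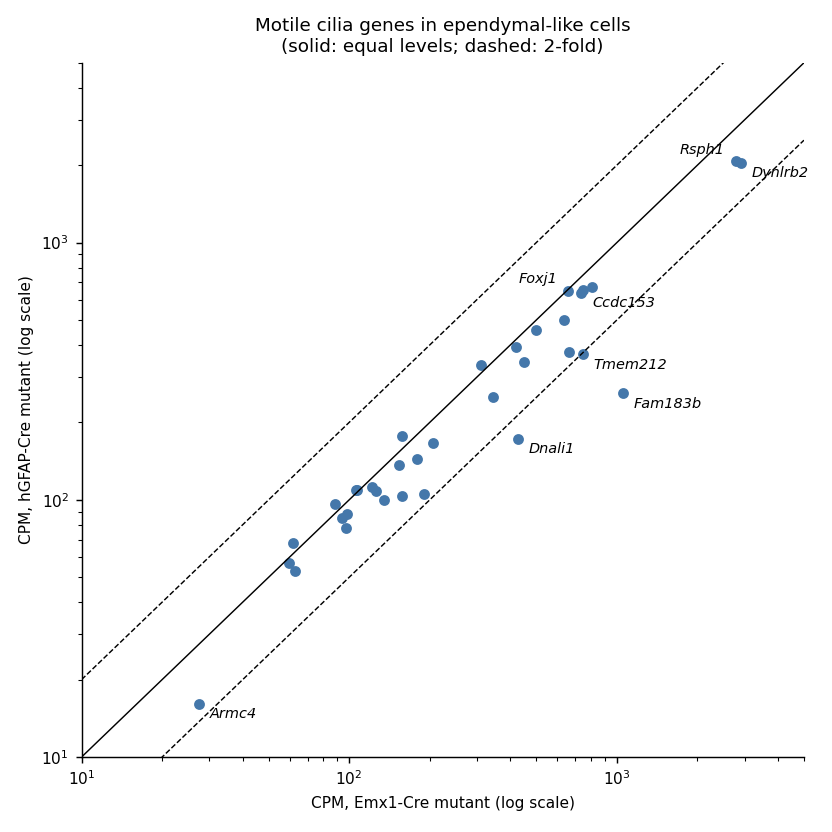
CPM of each motile cilia gene in summed ependymal-like cells of the Emx1-Cre library (horizontal, log scale) against the hGFAP-Cre library (vertical, log scale). Most points lie between the dashed 2-fold lines, and Fam183b, at 1054 against 260.0 CPM, lies farthest below them.

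Outside ependymal-like cells, the hGFAP-Cre library differed from both others in its astroglial-like cells, a class that pools astrocyte and radial glia markers. There the 35 genes summed to 176 CPM (169 to 183) in 1873 control cells, 101 CPM (96.0 to 106) in 1902 Emx1-Cre cells and 695 CPM (683 to 707) in 2867 hGFAP-Cre cells. Relative to the control, the log2 ratio was 1.98 for hGFAP-Cre and -0.80 for Emx1-Cre cells. The direction in the Emx1-Cre library depended on the removal of predicted doublets: with them kept, the sums were 190.2 CPM in the control and 220.4 CPM in the Emx1-Cre library, a log2 ratio of 0.21. Median depths of these cells were 7616, 7675 and 5864 UMIs, lowest in the library with the highest level.

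Different clusters held most of this class in each library. In the control they were a cluster led by Chil1, Slco1c1 and Hopx (1325 cells, 223 CPM of members) and one led by Dbx2, Mfge8 and Dio2 (504 cells, 87.9 CPM). In the Emx1-Cre library it was a cluster led by Has2, A2m and Lef1 (1878 cells, 97.6 CPM). In the hGFAP-Cre library it was a cluster led by Prm1, Ephx1 and Pter (2671 cells, 773 CPM). The 181 hGFAP-Cre cells in the Has2 cluster were at 103 CPM, near the Emx1-Cre cells of that cluster.

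Among members expressed in astroglial-like cells, Nme5 was at 14.0 CPM (12.2 to 16.0) in the control, 7.19 CPM (5.93 to 8.64) in the Emx1-Cre library and 144 CPM (138 to 149) in the hGFAP-Cre library. Tekt1 was at 1.92, 2.27 and 40.7 CPM, Rsph1 at 1.85, 9.84 and 39.6 CPM, and Dynlrb2 at 4.16, 4.23 and 56.8 CPM. These 4 genes were named for the highest hGFAP-Cre ratios in this class. Tekt1, Rsph1 and Dynlrb2 reached 10 CPM only in the hGFAP-Cre library. Their intervals and folds therefore follow from that choice and support nothing further. The intervals of the hGFAP-Cre library lay apart from both others for these 4 genes. Its CPM was 10.3-fold that of the control for Nme5, 21.2-fold for Tekt1, 21.3-fold for Rsph1 and 13.7-fold for Dynlrb2. Rsph1 also stood above the control in the Emx1-Cre library, by 5.31-fold, just under the 10 CPM filter. This was not particular to astroglial-like cells. In that library Rsph1 was at 14.1 CPM in intermediate progenitor-like and 11.6 CPM in Cajal-Retzius-like cells, against 0.349 and 0 CPM in the control. In Emx1-Cre microglia-like cells it was at 1.58 CPM (2 UMIs).

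Among the regulators, Foxj1 was at 9.53 CPM (8.06 to 11.2) in the control, 4.04 CPM (3.11 to 5.16) in the Emx1-Cre library and 56.3 CPM (53.0 to 59.8) in the hGFAP-Cre library. Rfx2 was at 6.33, 2.40 and 11.7 CPM, and Rfx3 at 37.1, 21.3 and 47.9 CPM. Mcidas was read in 1 UMI of the hGFAP-Cre library and in none of the others. Ccno, at 0.448, 0.442 and 0.887 CPM, and Myb, at 1.02, 2.21 and 3.91 CPM, stayed low in all 3 libraries. Early regulators were therefore scarce in astroglial-like cells, including those of the hGFAP-Cre library in which Foxj1 was read in 12.03% of thinned cells.

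In the control 4 members reached 10 CPM, namely Nme5, Rsph9, Rfx3 and Ccdc39. Of these 4, Nme5 and Rsph9 were at least 2-fold higher in the hGFAP-Cre library, beside 2.56% of 8411 genes at 10 CPM or more in the control. Ccdc39 was at 21.4 CPM in the control and 32.0 CPM in the hGFAP-Cre library. With the filter met in either library 13 members passed and 10 were at least 2-fold higher, beside 4.90% of 8881 genes. But 9 of the 13 passed only through the hGFAP-Cre library, where they are high, 8 of the 10 among them, so this count supports nothing. The other 22 members lay under the filter in both libraries. Over all 35 genes, 28 had an interval wholly above that of the control, beside 19.3% of 18034 genes with a UMI in either library, and none had one wholly below, beside 23.2%. In the Emx1-Cre library 2 had an interval above that of the control, beside 14.3% of 17856 genes, and 10 had one below, beside 36.4%. With the filter, 4 members passed in the Emx1-Cre comparison. None was at least 2-fold higher, beside 6.27% of 8871 genes and 3.14% of those at 10 CPM or more in the control, and 2 were at least 2-fold lower, beside 19.2%. These were Ccdc39, at 5.24 CPM, and Rsph9, at 56.0 CPM in the control and 23.5 CPM in the Emx1-Cre library. As 19.2% of all genes were that much lower in this comparison, 2 of 4 is not read as a feature of cilia genes.

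**Figure D4:**
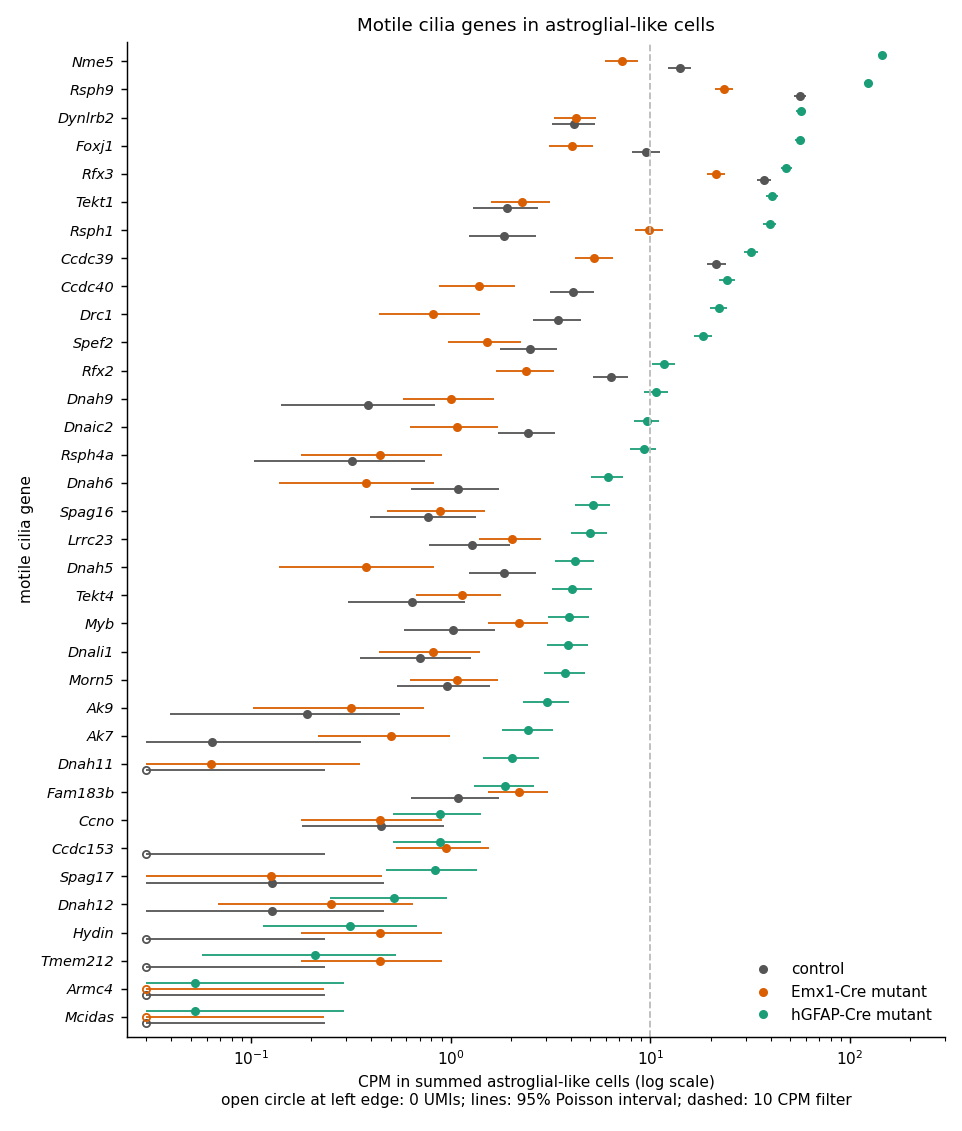
CPM (log scale) of each motile cilia gene in summed astroglial-like cells of the control, Emx1-Cre and hGFAP-Cre libraries, with 95% Poisson intervals for counting error. For 28 of the 35 genes the hGFAP-Cre interval lies above that of the control, while Tmem212, Armc4 and Mcidas stay near 0 in each library.

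The profile in hGFAP-Cre astroglial-like cells was not a scaled copy of the ependymal one. As a share of the same gene's level in ependymal-like cells of that library, Rfx3 reached 54.3%, Rsph9 24.5%, Nme5 21.9%, Rfx2 17.2%, Tekt1 8.92% and Foxj1 8.66%. Dynlrb2 reached 2.78% and Rsph1 1.91%. Fam183b reached 0.723%, Ccdc153 0.139% and Tmem212 0.0568%. The median over the 35 genes was 3.56%, against 0.236% in control and 0.354% in Emx1-Cre cells.

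Tmem212 and Ccdc153, the late ependymal genes, were close to background in astroglial-like cells. Tmem212 was read in 0, 7 and 4 UMIs of the control, Emx1-Cre and hGFAP-Cre libraries, and Ccdc153 in 0, 15 and 17. Tmem212 was at 0.442 CPM in Emx1-Cre astroglial-like cells and at 4.73 CPM in Emx1-Cre microglia-like cells. In the hGFAP-Cre library, 23 of the 35 genes had an interval in astroglial-like cells wholly above that in microglia-like cells, beside 32.2% of 17705 genes with a UMI in either class. In the control 10 had, beside 34.7% of 17486 genes, and in the Emx1-Cre library 5 had, beside 25.0% of 17164 genes.

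Counted cell by cell at 2500 UMIs, 73.9% of hGFAP-Cre astroglial-like cells (72.3% to 75.5%) had a UMI of at least 1 member. The share was 35.1% (33.0% to 37.4%) in the control, where 23 cells were too shallow to thin, and 21.3% (19.5% to 23.3%) in the Emx1-Cre library. Without thinning, the median cell had 1, 0 and 3 members detected in the control, Emx1-Cre and hGFAP-Cre libraries. In microglia-like cells 1.68%, 7.59% and 6.29% had any member, at median depths of 11170, 4755 and 6504.5 UMIs. The share in excitatory neuron-like cells, where Rsph9 and Rfx3 were also read, was 28.4%, 31.5% and 26.2%. The Emx1-Cre astroglial-like share thus lay below that of neurons in the same library. At least 3 members were detected in 21.8% of hGFAP-Cre astroglial-like cells, against 1.51% in the control and 0.631% in the Emx1-Cre library. Nme5 was read in 29.2% of thinned hGFAP-Cre cells, against 3.24% and 1.84%, and in 0.993% of that library's microglia-like cells.

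The signal was spread over many cells with few members each. Cells with 8 or more members made up 0.349% of hGFAP-Cre astroglial-like cells (0.167% to 0.641%) and held 1.98% of the class's thinned member UMIs. Cells with 5 or more held 16.3%. In ependymal-like cells of the same library, 96.3% had 8 or more.

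**Figure D5:**
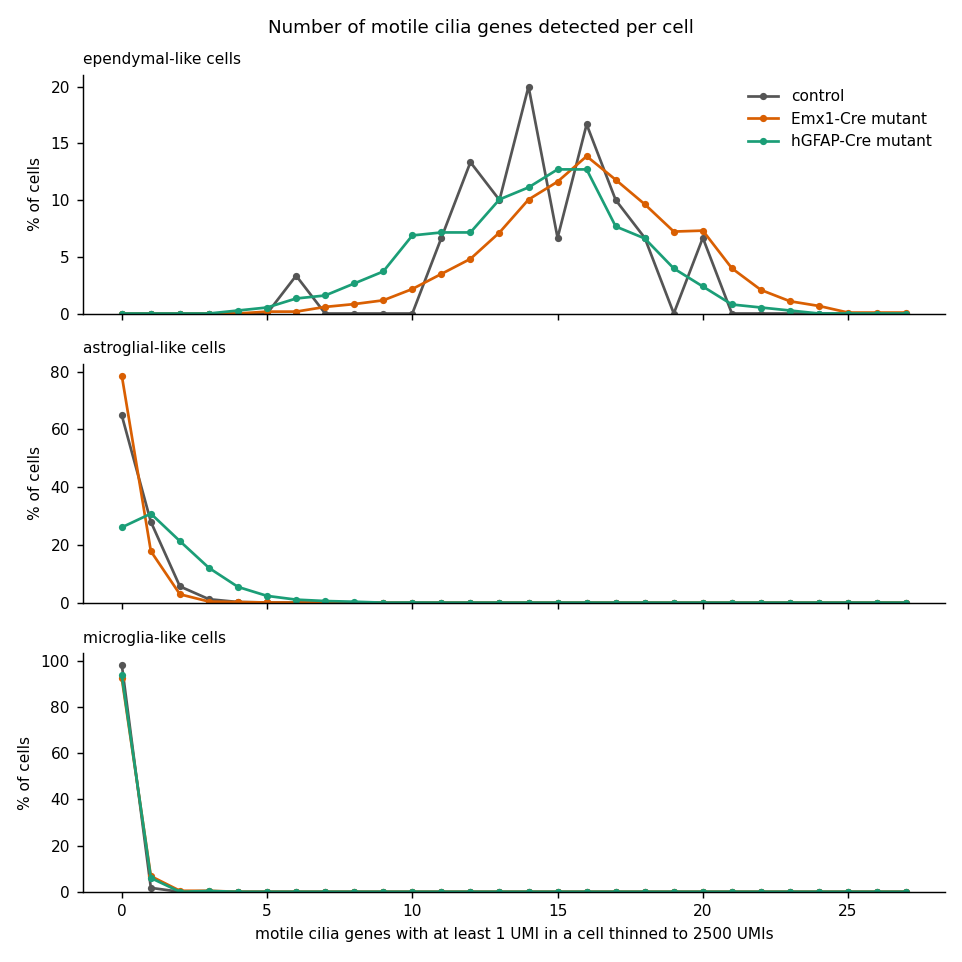
Share of cells (vertical, %) by the number of motile cilia genes with at least 1 UMI after each cell was thinned to 2500 UMIs (horizontal), for ependymal-like, astroglial-like and microglia-like cells of each library. In astroglial-like cells 73.9% of the hGFAP-Cre library had at least 1, against 35.1% and 21.3% of the control and Emx1-Cre libraries.

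The ependymal markers that were used to name cells, none of them a member, moved with this result. Pifo, Meig1 and Mlf1 also stand among the other axoneme genes described below, so this is no separate support. In astroglial-like cells the 16 markers summed to 214, 157 and 921 CPM in the control, Emx1-Cre and hGFAP-Cre libraries. With no filter on low values, 11 of 16 were at least 2-fold higher than the control in the hGFAP-Cre library, beside 4.74% of all genes with a UMI in either, and 2 were in the Emx1-Cre library, beside 4.91%. Hdc, Sntn and Tctex1d4 were at 0 in the control. The 10 choroid plexus markers summed to 5.63 CPM (4.51 to 6.93) in the control. Their sum was 11.2 CPM (9.58 to 12.9) in the Emx1-Cre library and 10.2 CPM (8.80 to 11.7) in the hGFAP-Cre library. Both mutant sums lay above the control's, but this was not a rise of the whole list. Otx2 alone gave 5.68 CPM of the Emx1-Cre sum. Only 1 (Emx1-Cre) and 2 (hGFAP-Cre) of the 10 were at least 2-fold higher, beside the same 4.91% and 4.74%. Clic6, Kl, Otx2 and Prlr were at 0 in the control, Kcnj13, Kl and Aqp1 in the Emx1-Cre library, and Ttr, Clic6 and Kl in the hGFAP-Cre library. The part of either marker list in the result was not tested.

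Clusters left unnamed held 44 control cells (0.462%), 341 Emx1-Cre cells (2.80%) and 3511 hGFAP-Cre cells (29.3%). These cells lay outside the 11 named classes. Most of the hGFAP-Cre ones, 2720 cells, formed a cluster in which the members summed to 92.2 CPM. Another of these clusters, of 426 cells, held a further level of the members. It was left unnamed: 7 of the 16 ependymal markers were raised, but its leading genes were H19, Acta2 and Cryab, and Acta2 marks mural cells. It held 9 control, 140 Emx1-Cre and 277 hGFAP-Cre cells. The members summed to 3981, 2247 and 2490 CPM there, between the astroglial-like and the ependymal-like levels. Foxj1 was at 800.4, 257 and 431 CPM, and Tekt1 at 223, 179 and 175 CPM. Tmem212 was read in 1, 2 and 5 UMIs and Ccdc153 in 0, 2 and 27, so the late ependymal genes were scarce in this cluster too. Myb was at 167, 113 and 176 CPM, above its level in astroglial-like cells.

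Other genes of the cilium were taken from 4 lists that hold no member. Of the 77 other axoneme genes found, 11 reached 10 CPM in the control's astroglial-like cells, and 7 of these were at least 2-fold higher in the hGFAP-Cre library, beside 2.56% of all genes at that level. A further 19 passed only through the hGFAP-Cre library, and 18 of them were at least 2-fold higher, which that choice favours. Pifo was at 1.66, 1.58 and 86.2 CPM in the control, Emx1-Cre and hGFAP-Cre libraries and Meig1 at 1.28, 7.003 and 60.0 CPM. Both are also among the ependymal markers. Of dynein arm assembly factors, which put dynein arms together in the cytoplasm, 2 of the 7 that passed in either library were at least 2-fold higher, beside 4.90% of all genes, and both passed only through the hGFAP-Cre library. These were Dnajb13, at 0.832, 0.442 and 16.3 CPM, and Pih1d2, at 6.65, 5.80 and 33.9 CPM.

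Intraflagellar transport genes, which also serve primary cilia, differed less in the hGFAP-Cre library, where 4 of 27 were at least 2-fold higher, beside the same 4.90%, and none lower. Ift43 was at 69.1, 80.2 and 217 CPM. In the Emx1-Cre library 11 of 26 were at least 2-fold lower, again beside 19.2% of all genes, among them Kif3a, a motor subunit, at 104, 29.4 and 85.4 CPM. Of the genes for centriole amplification, 1 of 7 was at least 2-fold higher in hGFAP-Cre astroglial-like cells, beside the same 4.90% of all genes. It was Cdk1, the mitotic kinase, at 21.5, 347 and 44.3 CPM, which was highest in the Emx1-Cre library. In that library 3 of 11 centriole genes were at least 2-fold higher, beside 6.27% of all genes. But 4 of the 11 passed through the mutant alone and gave 2 of the 3, which that choice favours. Of the 7 at 10 CPM or more in the control, 1 was higher, beside 3.14% of all genes at that level. Of the other axoneme genes, 13 passed in the Emx1-Cre comparison. Of these, 3 were at least 2-fold higher, beside 6.27% of all genes, and 2 of the 3 passed through the mutant alone. Of the 11 at 10 CPM or more in the control, 1 was higher, beside 3.14%. A further 2 of the 13 were at least 2-fold lower, beside 19.2% of all genes. Mlf1, also an ependymal marker, was at 5.69, 23.2 and 124 CPM.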

How the data were processed

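The deposited files hold raw UMI counts per gene and barcode; the authors made these counts with Cell Ranger 5.0.0, per the file headers, and genome build mm10, per the submitters' processing notes. Cells with at least 1000 genes and at most 10% mitochondrial counts were kept, and doublets predicted by Scrublet in scanpy 1.11.5 (expected 10%) were removed: 442 control, 1008 Emx1-Cre and 1144 hGFAP-Cre cells. Clustering used 2000 variable genes without the 35 members, 30 components, 15 neighbours and Leiden resolution 1 (leidenalg 0.10.2), or resolution 2 for stages. A class needed at least 3 markers that were 2-fold higher than in other cells and read in 25% of its cells.

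For each class, the counts of a library's cells were added up and set to UMIs per 1000000 (CPM). Ratios of single genes are log2 of CPM + 1, those of summed members log2 of CPM, and folds are of CPM. Intervals are exact Poisson or Clopper-Pearson. Called means 2-fold, above 2 CPM for all cells and 10 CPM within a class. The calls and intervals were tested on simulated data. Members and lists were chosen with earlier results of these data known. Named members were the 6 regulators, the 8 with the most UMIs, and in each mutant's astroglial-like cells up to 4 with the highest and 2 with the lowest ratio. Others, such as Tmem212, Armc4 and Dnali1, were named after their values were seen. The alternatives changed cell filters, doublets, clustering, naming, depth, pseudocount, filter and fold.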

Additional observations from a re-analysis of the deposited data

Results flagged for a closer look

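In astroglial-like cells, 7 values differed from the control in opposite directions in the 2 mutants. Their counting intervals lay apart from the control's in both. The list covers only the summed members and members named by rule, and the sum contains the single genes listed. Dnah5, Dnaic2, Drc1 and Ccdc40, not named by rule, met the same condition. The share of all genes that met it is not given here. Both comparisons share the control library, and the difference between them was not tested. The summed members had a log2 ratio of -0.80 with Emx1-Cre and of 1.98 with hGFAP-Cre. Foxj1 had -1.06 and 2.44, Nme5 had -0.87 and 3.27, and Rsph9 had -1.22 and 1.12. The others were Rfx2, with -1.11 and 0.79, Rfx3, with -0.77 and 0.36, and Ccdc39, with -1.84 and 0.56. For 3 of the 7 the opposite direction was lost under another setting: with doublets kept the Emx1-Cre ratio was 0.21 for the sum and 0.52 for Nme5, and the hGFAP-Cre ratio of Ccdc39 was -0.10 in cells with 2000 genes or more. Over all genes tested the median ratio was -0.37 for Emx1-Cre and -0.09 for hGFAP-Cre.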

How the results depend on the processing

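All ratios here are log2, mutant over control. Over all cells, the Emx1-Cre sum went from 3.80 to 3.84 with no cell filter and 3.62 without Dynlrb2, and the hGFAP-Cre sum from 2.51 to 2.56 and 2.37. The Emx1-Cre ependymal-like share went from 4.97 to 5.57 with at least 2000 genes per cell. In astroglial-like cells, the Emx1-Cre sum was -0.80, and was -0.30 with members among the variable genes, -0.39 with the other cilia lists also out, -0.47 at resolution 2, -1.19 with at least 2000 genes and -0.32 with cells called 1 by 1. It turned to 0.21 with doublets kept. The hGFAP-Cre sum was 1.98, and in those settings 1.78, 1.64, 2.06, 1.52, 2.11 and, with doublets kept, 2.07. It was 1.89 without Dynlrb2. In ependymal-like cells, the Emx1-Cre sum of 0.39 went to 0.43 with members in, with the other lists out and at resolution 2, to 0.44 with at least 2000 genes and to 0.55 with cells called 1 by 1. The hGFAP-Cre sum of -0.046 went to -0.10 with the other lists out, -0.19 with cells called 1 by 1 and -0.085 after thinning. With no filter on low values, 1 rather than 0 members was 2-fold higher in Emx1-Cre astroglial-like cells, beside 4.91% of all genes, and 7 rather than 2 were 2-fold lower, beside 13.1%. In hGFAP-Cre cells 22 rather than 10 were 2-fold higher, beside 4.74%, since more genes were counted. With the filter on the control's level alone, chosen after seeing the data, 2 were in hGFAP-Cre astroglial-like cells, and over all cells 19 were in each mutant, rather than 34 and 33, since fewer genes were counted. The 19 were all the members that passed but Rfx3, and no share of all genes is given beside them. Of 78 values of named members in astroglial-like cells, 38 moved beyond their counting interval and 2 changed sign: Nme5 in the Emx1-Cre library, 0.52 with doublets kept, and Ccdc39 in the hGFAP-Cre library, -0.10 with at least 2000 genes. Where not stated, the cause was not tested. No paired analysis was possible because each genotype had 1 library. The control's 30 ependymal-like cells limit every ratio within that class, and a gene with few UMIs in a class cannot be told from free RNA.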

Other observations

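The genes whose levels were most like the summed members, by Pearson correlation of log2(CPM + 1) over 33 sums of a class in a library with at least 20 cells, were Spata33 (0.963), Ift22 (0.963), Lrrc48 (0.962), Fsip1 (0.960) and Lrriq1 (0.959). The points share libraries and are a description. In astroglial-like cells, Lrriq1 was at 2.88, 1.45 and 29.1 CPM in the control, Emx1-Cre and hGFAP-Cre libraries, and Spata33 at 2.24, 2.33 and 15.3 CPM.

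The Prm1-led astroglial-like cluster also held 14 control and 15 Emx1-Cre cells. The members summed to 714 CPM (560 to 896) in those control cells and 743 CPM (564 to 960) in those Emx1-Cre cells, beside 773 CPM in the 2671 hGFAP-Cre cells. Within thinned hGFAP-Cre astroglial-like cells, Tekt1 was read in 13.02% (10.8% to 15.5%) of the 837 cells with a UMI of Nme5 and in 6.90% (5.83% to 8.09%) of the 2030 cells without one.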
